A study of Saccharomyces cerevisiae with 3 samples.

Results

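The genes of glutamate, glutamine and GABA metabolism were followed in budding yeast (Saccharomyces cerevisiae) lacking GCR1, an activator of glycolytic gene transcription, against wild-type cells, before and after glucose was added. The 10 genes, chosen by symbol, were the glutamate dehydrogenases GDH1, GDH2 and GDH3, glutamine synthetase GLN1, glutamate synthase GLT1, glutamate decarboxylase GAD1 and the GABA genes UGA1, UGA2, UGA3 and UGA4. All 10 were measured on every array, by 18 of 10807 probes, among 5598 genes in all. Of them 8 had 2 probes, and UGA1 and GLN1 had 1.

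Both strains were grown in rich medium (YEP) with 3% pyruvate, and sampled just before glucose and at 20 and 60 min after it. The sources used here do not give the glucose concentration, the strain background or more of the allele than that it is a gcr1 null. At each time, total RNA of the mutant and of the wild type was labelled with Cy5 and Cy3 and hybridised together on 1 Agilent array. Each value is thus a log2 ratio of the strains, in which 1.0 is 2-fold, and with a single array for each time no value has a replicate check and no test between strains or times was possible.

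Glutamate and glutamine donate the nitrogen of most other compounds in yeast. Glutamate is made from 2-oxoglutarate and ammonium by the NADPH-dependent glutamate dehydrogenases Gdh1 and Gdh3, and glutamine from glutamate and ammonium by Gln1. Glutamate synthase, Glt1, turns glutamine and 2-oxoglutarate back into glutamate. Gdh2, which uses NAD, runs the other way and releases ammonium from glutamate. In the GABA shunt, Gad1 decarboxylates glutamate to GABA, Uga1 transfers the amino group of GABA and leaves succinate semialdehyde, and Uga2 oxidises that to succinate. Uga4 is a GABA permease, and Uga3 is the zinc-finger activator through which GABA induces UGA1 and UGA4.

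Whether mutant or wild type is the numerator is not stated in the labels. Mutant over wild type is likely, because the titles of the arrays name the null mutant and the design text lists it before the wild type. GCR1 itself stood at 0.97 at 0 min, 0.91 at 20 min and 1.51 at 60 min, positive where a deleted gene would be negative under that direction, although probes outside the deleted part would check nothing and the sources used here do not give their position. Glycolytic genes that GCR1 activates, taken as a check of the direction, were negative on all 3 arrays, the side that mutant over wild type would give. In time order GPM1 stood at -5.55, -3.75 and -2.25, ENO2 at -4.73, -1.80 and -1.91, and CDC19 at -3.43, -2.50 and -2.33. TPI1 had -3.56, -1.50 and -0.47, and PGK1 -3.0, -0.86 and -0.29. Because the GCR1 probes lay on the other side and the labels name no numerator, each ratio is called positive or negative, with no strain named as higher. A ratio also does not show in which strain a transcript level differed from time to time. The median gene was at 0.07, -0.08 and 0.05, and the interquartile range over genes was 0.42, 1.34 and 1.25. The measurable error was that between probes of a gene on the same array. For 95% of probe pairs it was below 0.41, 0.48 and 0.38 in time order. It leaves out the variation between cultures, RNA preparations and arrays. With no dye-swapped array used here, a dye bias of a probe cannot be told apart from a strain difference.

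On pyruvate the ratios of all 10 genes were within 2-fold. At 20 min after glucose, 6 of the 10 were at least 2-fold positive and 0 were that far negative, where 17.1% of all genes were that positive and 16.5% that negative. These were the enzymes of the GABA shunt, GAD1, UGA1 and UGA2, with glutamine synthetase GLN1 and the dehydrogenases GDH2 and GDH3. At 60 min 4 were still at least 2-fold positive (background 16.2%), namely the GABA enzymes and GDH3, and 1, GDH1, was at least 2-fold negative (background 13.6%). The median of the 10 genes was 0.30 at 0 min, 1.85 at 20 min and 0.83 at 60 min. At 0 min 3.34% of all genes lay beyond 2-fold on either side. That array had the narrowest spread. With the arrays scaled to equal spread the members beyond 2-fold were 3 positive and 2 negative at 0 min and 5 positive and 0 negative at 20 min. At 60 min they were 4 positive and 1 negative. GDH3, at 0.89, was then within 2-fold at 20 min. The shares of all genes above hold for the values as deposited. None is given for the scaled arrays, so the scaled counts have no background.

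**Figure D1:**
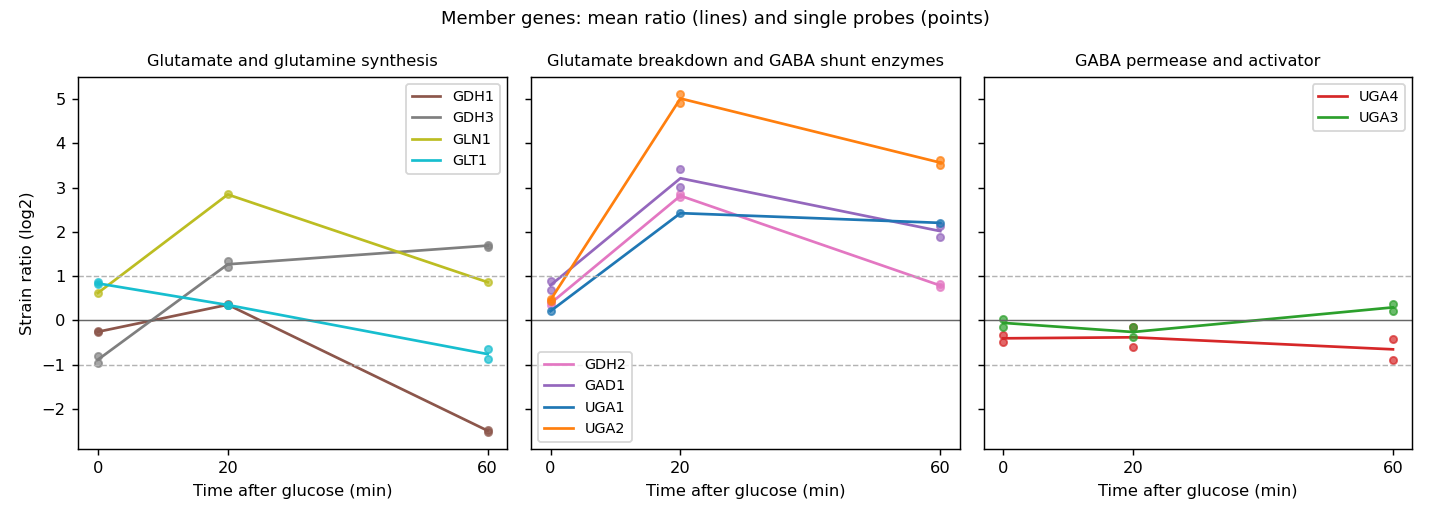
Log2 ratio of the strains (vertical axis) against time after glucose in minutes (horizontal axis) for the 10 genes, in panels by role. Lines join the mean over probes of a gene, points are single probes, and dashed lines mark 2-fold. UGA2 reached 5.01 at 20 min, GDH1 -2.49 at 60 min, and UGA3 and UGA4 lay within 2-fold on all 3 arrays.

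UGA2, the succinate semialdehyde dehydrogenase at the end of the GABA shunt, had the highest ratio of the 10 genes after glucose. Its ratio was 0.46 on pyruvate, 5.01 at 20 min and 3.57 at 60 min, the values after glucose being 32.3-fold and 11.8-fold. It ranked 7 from the top of 5597 genes at 20 min and 36 of 5596 at 60 min. Its probes gave 5.12 and 4.91 at 20 min and 3.62 and 3.51 at 60 min, so that both lay far above the 0 min values of 0.48 and 0.45.

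UGA1, the GABA transaminase that supplies the substrate of Uga2, had 0.21, 2.42 and 2.20, the last 2 being 5.36-fold and 4.61-fold. This ratio stayed nearly level from 20 to 60 min, with a difference of -0.22, whereas that of UGA2 was -1.45. The single UGA1 probe leaves its error unmeasured, and 95% of probe pairs elsewhere differed by less than 0.53 in that difference. GAD1, which makes GABA from glutamate, had 0.79, 3.21 and 2.02, and its probes 3.41 and 3.01 at 20 min. At 0 min it was already 1.73-fold positive, with 97.8% of genes below it. GAD1, UGA1 and UGA2 were positive on all 3 arrays and at least 4.05-fold positive at both times after glucose.

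The transport and regulatory genes of GABA use did not show ratios of that size. UGA4, the GABA permease, had -0.41, -0.38 and -0.66. One of its probes gave -0.48, -0.61 and -0.89 in time order and the other -0.33, -0.15 and -0.43, so the pair differed by 0.46 on each of the last 2 arrays, more than the distance of the ratio from 0 at 20 min. The less negative probe matched a ratio of small whole numbers on all 3 arrays, a pattern of low signal that a value can also meet by coincidence. UGA3, the activator, had -0.06, -0.26 and 0.29, within the probe-pair error of each array. One UGA3 probe, at -0.15, also met the low-signal pattern at 20 min. UGA1 exceeded UGA4 by 2.81 at 20 min and 2.86 at 60 min, against 0.61 at 0 min, although both are induced through Uga3 when GABA is supplied.

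Of the enzymes that assimilate ammonium, GDH1 encodes the main glutamate-forming dehydrogenase of cells growing on glucose. Its ratio was -0.26 on pyruvate, 0.35 at 20 min and -2.49 at 60 min, the last being 5.63-fold negative. It ranked 46 from the bottom of 5596 genes at 60 min, after standing near the middle at 20 min with 66.8% of genes below it. The probes gave -2.52 and -2.47 at 60 min, a difference of 0.05. From 20 to 60 min the ratio moved by -2.85, which ranked 24 from the negative end of 5595 genes.

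GDH3, its paralog, which is repressed by glucose in the wild type, lay apart from it on all 3 arrays, furthest at 60 min. Its ratio was -0.89 at 0 min, 1.27 at 20 min and 1.69 at 60 min, or 1.85-fold negative, 2.41-fold positive and 3.23-fold positive. With the arrays scaled to equal spread these became -2.05, 0.89 and 1.16, so the 20 min ratio was then within 2-fold. Both paralogs were negative at 0 min and positive at 20 min, though the GDH1 ratios then were within the probe-pair error. At 60 min they lay on opposite sides. GDH3 was the lowest of the 10 genes at 0 min. GDH3 minus GDH1 was -0.63 at 0 min, 0.91 at 20 min and 4.18 at 60 min, an 18.2-fold gap between the paralogs on the last array. The genes are close in sequence, and cross-hybridisation between them was not tested. At the offset with most matches on each array, one of the GDH3 probes matched the low-signal pattern every time (-0.82, 1.33 and 1.67). Its partner (-0.96, 1.20 and 1.71) matched on none, and the pair differed by no more than 0.15. The match at 60 min depends on which of 2 nearly tied offsets is taken for that array. At 20 min the offset was also nearly tied, and both GDH3 probes matched at the other value.

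GLN1 and GLT1, which together form a second route to glutamate, parted after glucose. Glutamine synthetase GLN1 had 0.62, 2.85 and 0.86, a 7.19-fold positive ratio at 20 min from its single probe. Glutamate synthase GLT1 had 0.84, 0.35 and -0.76, from positive to negative across the 3 arrays. Its probes agreed within 0.05 at 0 min and 0.01 at 20 min, and gave -0.66 and -0.87 at 60 min. At 0 min GLT1 was the highest of the 10 genes, with 98.1% of all genes below it, and at 60 min 19.3% were below it. The GLN1 ratio exceeded that of GLT1 by 2.5 at 20 min and 1.63 at 60 min, against -0.22 at 0 min.

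GDH2, the catabolic dehydrogenase, had 0.38, 2.82 and 0.79, a 7.04-fold positive ratio at 20 min, with probes at 2.85 and 2.78. These values lay close to those of GLN1 on every array. Over the 3 arrays the distance of the pair was 0.25 on the log2 scale, although Gdh2 releases ammonium from glutamate and Gln1 consumes it. The next closest pair among the members beyond 2-fold on any array was GAD1 and UGA1, at 1.0.

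Within an array the order of the 10 genes was resolved only in part. At 0 min each gene differed from the next in order by less than the 95% probe-pair error, apart from the gap of 0.48 between UGA4 and GDH3. At 20 min UGA2 stood 1.80 above GAD1, GLN1, GDH2 and UGA1 followed in steps within that error, and GDH3 came 1.16 below UGA1. GDH1 and GLT1 (both 0.35) were next, and UGA3 and UGA4 last. At 60 min UGA2 was 1.36 above UGA1, and UGA1, GAD1 and GDH3 followed each other in steps within the error. GLN1 and GDH2 formed the next pair, and GDH1 stood 1.73 below GLT1 at the bottom.

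**Figure D2:**
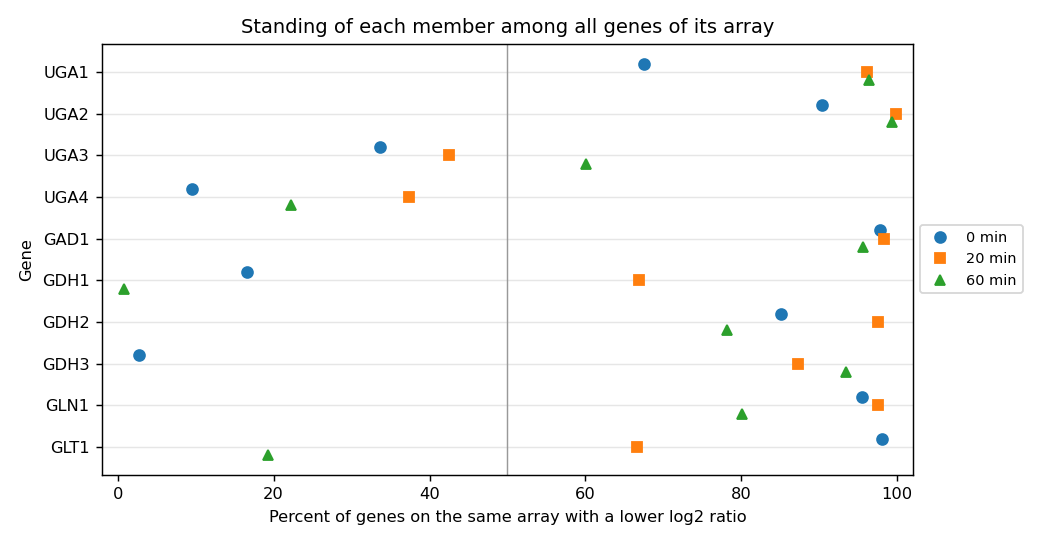
Percent of all genes on the same array whose log2 ratio was lower (horizontal axis), for each of the 10 genes (vertical axis) at 0 min (circles), 20 min (squares) and 60 min (triangles). GAD1 stood above 95.6% of genes or more on each array, while GDH1 had 66.8% below it at 20 min and 0.80% at 60 min.

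The change of ratio between times removes a dye bias of a probe that is the same on each array. From 0 to 20 min 6 of the 10 genes shifted by at least 2-fold to the positive side, where 16.1% of all genes did, and 0 to the negative side (background 16.4%). The shift was 4.55 for UGA2, and for GDH2, GAD1, GLN1, UGA1 and GDH3 it lay between 2.16 and 2.43. With the arrays scaled to equal spread these 5 shifts were no longer alike, at 2.94 for GDH3, 1.36 for UGA1, 1.25 for GDH2, 0.77 for GLN1 and 0.64 for GAD1. GLT1 then stood at -1.35, and the counts were 4 positive and 1 negative, with no share of all genes given for the scaled arrays. On the values as deposited, the other members shifted by 0.61 (GDH1), 0.02 (UGA4), -0.21 (UGA3) and -0.49 (GLT1).

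From 20 to 60 min 8 of the 10 shifts were to the negative side, where the median shift over all genes was 0.16. Of the 10 genes 6 shifted by at least 2-fold to the negative side (background 10.2%) and 0 to the positive side (background 8.45%). These were GDH1 (-2.85), GDH2 (-2.03), GLN1 (-1.98), UGA2 (-1.45), GAD1 (-1.20) and GLT1 (-1.11). With the arrays scaled to equal spread 3 of them, GDH1, GDH2 and GLN1, were beyond 2-fold, and UGA2 (-0.88), GLT1 (-0.86) and GAD1 (-0.78) were not. On the values as deposited, UGA1 (-0.22) and GDH3 (0.42) held near their 20 min ratios. The 20 min array enters both sets of differences, so they are not independent. Taken from 0 to 60 min, 4 genes were at least 2-fold to the positive side (background 15.4%), UGA2 (3.10), GDH3 (2.58), UGA1 (2.0) and GAD1 (1.22), and 2 to the negative side (background 13.3%), GDH1 (-2.24) and GLT1 (-1.60). GDH2 and GLN1 were back within 0.40 and 0.24 of their ratios on pyruvate. With the arrays scaled to equal spread the difference from 0 to 60 min was -0.14 for GAD1, -0.14 for GDH2 and -0.59 for GLN1. By that scaling 3 members were at least 2-fold to the positive side and 2 to the negative. The backgrounds of these shifts are for the values as deposited, and none is given for the scaled arrays.

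**Figure D3:**
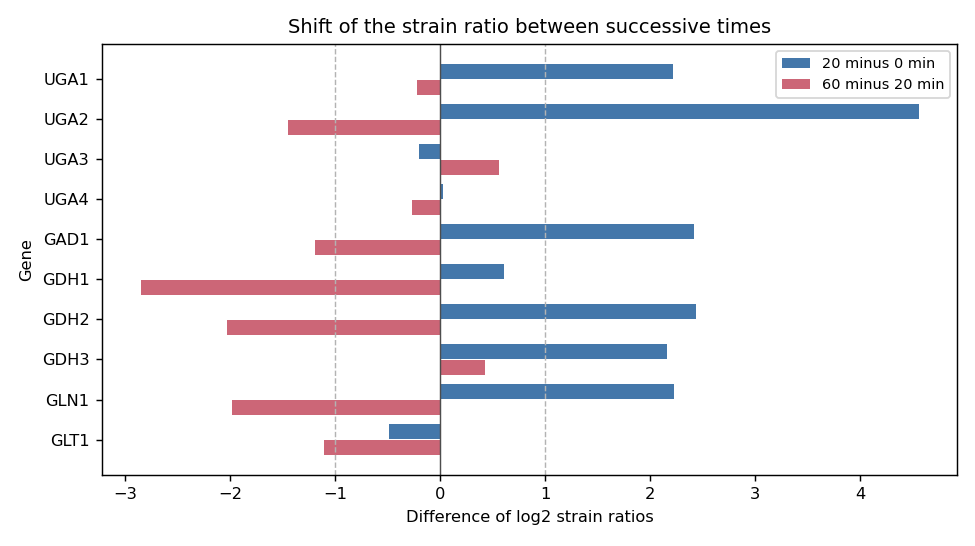
Difference of log2 strain ratios (horizontal axis) from 0 to 20 min (blue) and from 20 to 60 min (red) for the 10 genes (vertical axis), with dashed lines at 2-fold. GDH2, GLN1, GAD1 and UGA2 have a long blue bar to the right and a red bar beyond 2-fold to the left, while GDH1 has its longest bar to the left from 20 to 60 min.

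Lists of genes around these reactions, of which 83 genes were measured, held 33 genes beyond 2-fold on the positive side and 7 on the negative side at 20 min, 39.8% and 8.43% of them, where the shares of all genes were 17.1% and 16.5%. The 60 min array had 20 positive and 12 negative, 24.1% and 14.5%, against 16.2% and 13.6% of all genes, so the negative share was near the background. At 0 min 4 were positive (background 1.09%) and 0 negative (background 2.25%), which became 12 and 5 with the arrays scaled to equal spread. That scaling gave 24 and 2 at 20 min and 16 and 5 at 60 min. The shares of all genes given here are for the values as deposited, not for the scaled arrays.

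The genes that supply, carry or consume 2-oxoglutarate, the carbon skeleton of glutamate, shared the positive ratios at 20 min. Of 15 measured, 13 were at least 2-fold positive at 20 min (background 17.1%), with a median of 2.43. At 60 min 6 were that positive (background 16.2%), with a median of 0.93, and at 0 min 1 was (background 1.09%). Citrate synthase CIT1 had 0.16, 5.32 and 2.44, and CIT2, the peroxisomal form and a target of the retrograde pathway, 1.15, 5.04 and 4.72. ODC1, a mitochondrial carrier of 2-oxoglutarate, had -0.17, 3.53 and 0.51. Aconitase ACO1, with -0.24, 1.46 and -1.17, was the only gene of the list at least 2-fold negative at 60 min (background 13.6%). The glutamate and aspartate carrier AGC1, at 0.04, was the lowest of the list at 20 min. KGD1, a subunit of the 2-oxoglutarate dehydrogenase that competes for the same substrate, had -0.07, 3.02 and -0.17, so at 60 min it was back near 0. Mitochondrial isocitrate dehydrogenase IDP1 then had 2.80. The other isocitrate dehydrogenase genes were lower, IDH1 at 1.30, IDH2 at 0.93, IDP2 at 0.46 and IDP3 at 1.48.

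Genes for uptake and breakdown of other nitrogen sources lay on both sides at 60 min. At 20 min 10 of 20 measured were at least 2-fold positive and none that far negative, with a median of 1.01, against 17.1% and 16.5% of all genes. At 60 min 4 were positive and 4 negative, with a median of -0.02, against 16.2% and 13.6%. DIP5, the permease for glutamate and aspartate, was highest at 20 min, with 0.83, 3.96 and 2.99. PUT2, the last enzyme of proline breakdown to glutamate, had 0.23, 2.35 and 2.03, and CAR2, ornithine transaminase, 0.74, 2.48 and 2.39. DAL5, an allantoate permease, had -0.10, 2.09 and 3.08. On the negative side at 60 min were the general amino acid permease GAP1 (0.46, -0.22 and -1.72), the ammonium permease MEP3 (-0.28, 1.29 and -1.55) and the amino acid permease AGP1 (0.26, 0.91 and -1.35).

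Nitrogen catabolite repression holds many of these genes low when good nitrogen sources are present. The regulators listed for it, which include activators, mostly had small ratios. None of 7 reached 2-fold on either side at 0 min (background 3.34%) or 20 min (background 33.6%), with medians of -0.24 and 0.04. At 60 min (background 29.8%) GAT1, a GATA-type activator, was the 1 that did so, with -0.62, -0.92 and -1.30. DAL80, measured by 1 probe, met the low-signal pattern at 0 and 60 min. GLN3, the other GATA-type activator, had -0.24, 0.28 and 0.71. Among the other regulators reported for members, HAP4, the activating subunit of the HAP complex, had -0.12, -1.94 and -1.99. LEU3, a regulator of branched-chain amino acid genes and of GDH1, had 0.22, -1.74 and -0.66. RTG1 of the retrograde pathway had 0.01, 0.87 and 0.64. GCN4, which activates amino acid biosynthesis genes, was at 7.66, 7.83 and 7.40, nearly the same on each array. It ranked 1 from the top of all genes each time, at 202-fold, 228-fold and 169-fold. Its part in the members' ratios was not tested.

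**Figure D4:**
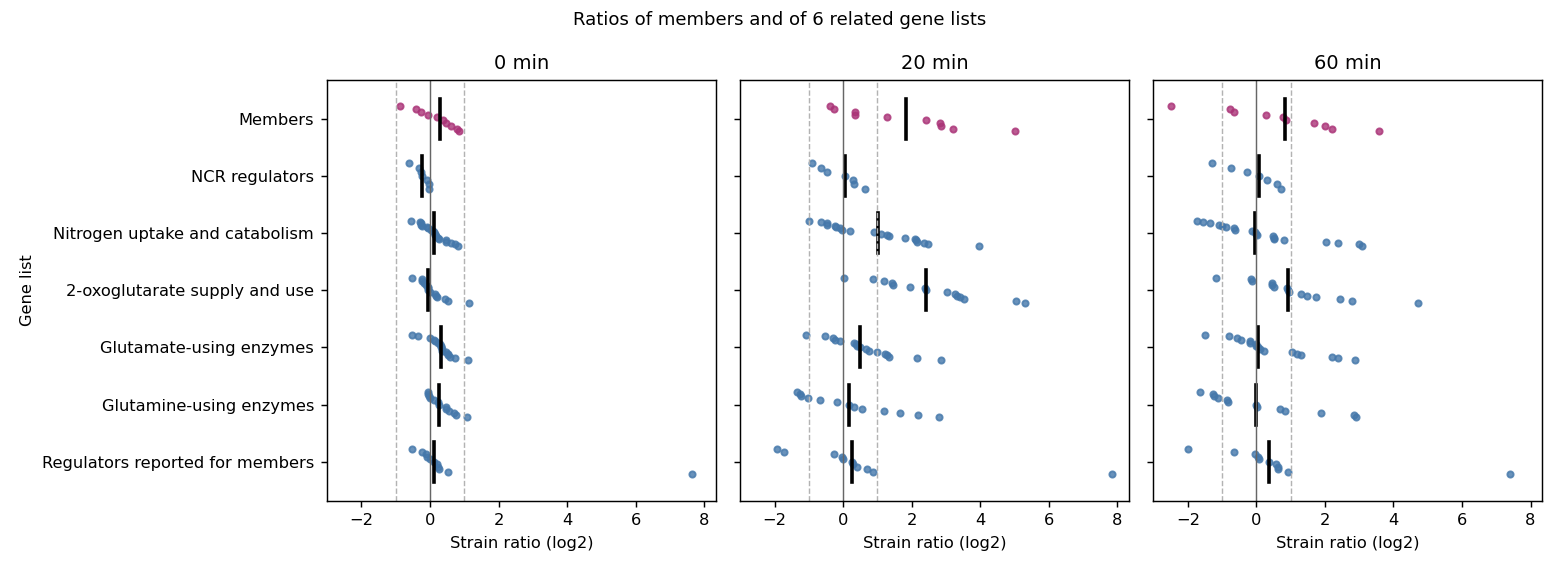
Log2 ratio of the strains (horizontal axis) at 0, 20 and 60 min for the 10 genes (top row, purple) and for 6 related lists (blue), 1 point per gene, with the list median as a black bar and dashed lines at 2-fold. NCR stands for nitrogen catabolite repression. The list around 2-oxoglutarate has a median of 2.43 at 20 min, and the isolated point at the right of the bottom row is GCN4.

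Enzymes that spend glutamate or glutamine had medians nearer to 0 at both times after glucose than the 10 members. Of 17 measured that use or transfer the nitrogen or carbon of glutamate, 5 lay beyond 2-fold on the positive side at 20 min and 1 on the negative side, with a median of 0.48. At 60 min these counts were 6 and 1, with a median of 0.04. The shares of all genes were 17.1% and 16.5% at 20 min and 16.2% and 13.6% at 60 min. The cytosolic branched-chain transaminase BAT2 had 0.31, 2.85 and 2.89, while its mitochondrial counterpart BAT1 had 0.52, 0.36 and -0.81. SER1, phosphoserine transaminase, had 0.29, 2.15 and 2.22. The alanine transaminase ALT1 had 0.23, 0.65 and -1.49, and the mitochondrial aspartate transaminase AAT1 0.74, -1.08 and 0.10.

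Among 13 measured glutamine-using enzymes the 20 min array had 4 beyond 2-fold on each side, with a median of 0.16. The 60 min array had 3 positive and 4 negative, with a median of -0.02. The shares of all genes given for the glutamate list apply here too, 17.1% and 16.5% at 20 min and 16.2% and 13.6% at 60 min. CPA1, a subunit of the carbamoyl phosphate synthetase for arginine, had 0.69, 2.17 and 2.92. The CTP synthase paralogs URA8 (1.09, 2.80 and 2.85) and URA7 (-0.07, -1.26 and -1.66) lay on opposite sides after glucose, as did GDH3 and GDH1 at 60 min. GFA1, which makes glucosamine phosphate, had -0.06, -1.34 and -1.12.

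The genes with the most similar ratios were found by Euclidean distance over the 3 arrays, a short series on which many genes lie close. For UGA1 they were the vacuolar permease gene VBA1 (0.14), PUT2 (0.19) and SDS24 (0.22). UGA2 had more distant matches, its closest being catalase CTT1 (0.53), the CoA transferase ACH1 (0.66) and PHM8 (0.74). GAD1 lay nearest to VHS3 (0.33), the fatty acid activating enzyme FAA1 (0.41) and MSC1 (0.43). The peptide transporter PTR2 was closest to both GDH2 (0.18) and GLN1 (0.23), and TFS1 was near both as well (0.20 and 0.34), followed for GDH2 by the activator gene ADR1 (0.26) and joined for GLN1 by PLN1 (0.27). GDH1 lay nearest to RPM2 (0.31), the 14-3-3 gene BMH1 (0.46) and the ribosomal protein gene RPL29 (0.64), and GDH3 to OTU1 (0.49), the SUMO gene SMT3 (0.49) and COX23 (0.52).

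Chromosomal neighbours were taken from the gene order of the RefSeq R64 annotation. The 6 members beyond 2-fold at 20 min were all positive and had 10 measured neighbours. Of these, 3 were beyond 2-fold on the member's side, RCR1 beside UGA2, BDH2 beside GDH3 and VMA13 beside GLN1 (background 17.1%). On the other side 3 were beyond 2-fold (background 16.5%). At 60 min 2 of 7 were on the member's side, RCR1 and BDH2, and 3 on the other. Of all genes 16.2% were then at least 2-fold positive and 13.6% negative. The pairs described next were chosen after their values were seen. GLT1 and UGA3 are adjacent and divergently transcribed, and stood at 0.84 and -0.06 at 0 min and at -0.76 and 0.29 at 60 min. The gene on the other side of GLT1, PAR32, had 0.20, 2.24 and 1.92. ALD4, next to GDH1, had 1.13, 4.51 and 1.69 against -0.26, 0.35 and -2.49 for GDH1. BDH2, the downstream neighbour of GDH3, had 0.38, 3.95 and 1.97, positive with GDH3 after glucose but not at 0 min.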

How the data were processed

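The deposited value table held, for 10807 probes, 1 log2 ratio of the 2 channels on each of 3 arrays. That the scale is log2 was taken from tied values, whose gaps fit ratios of small whole numbers. The sources used here do not give the authors' scanner software, background correction, normalisation or filters. Probes were named by the platform annotation: 9202 had 1 symbol, 0 several and 1605 none, and 9194 were matched to RefSeq R64 by gene ID. Probe values of a gene were averaged.

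Members and lists were chosen with earlier results of these data known. Named were all 10 members, GCR1, the glycolytic check genes, GCN4, the 3 nearest genes of each member beyond 2-fold, and some chromosomal neighbours. List genes were picked from the 3 highest and lowest of each list on each array, and not all of those are named. Of 87 list genes 4 are not analysed here. Low signal was read where a value fell no more than 0.001 from log2 of a quotient of whole numbers up to 8, after the offset with most matches on that array. By this rule 9.21%, 10.8% and 8.98% of named probes matched, against 1.91%, 1.51% and 1.59% of all probes at the median of other offsets. The 60 min offset was nearly tied with one 1.0 lower, at 1534 and 1522 probes. The 20 min offset was nearly tied with one 1.0 higher, at 1783 and 1740 probes. No test was run. The calculations, in Python 3.11.15 with pandas 2.3.3 and numpy 2.4.6, were checked on simulated data. The number of arrays limits the precision.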

Additional observations from a re-analysis of the deposited data

Results flagged for a closer look

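GDH3 lay on opposite sides of 0 before and after glucose, with both values beyond the probe-pair error of their arrays. The difference was 2.16 from 0 to 20 min and 2.58 from 0 to 60 min. GLT1 did so between 0 and 60 min, by -1.60. With 1 array per time these differences were not tested.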

How the results depend on the processing

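Centring each array on its median gene, using the first or the last probe of a gene, or leaving out values of low signal took none of the 30 member ratios across 2-fold. Of these, 1 changed sign, UGA3 at 0 min with the first probe. Low signal was read at 1 offset per array, and at the nearly tied 20 min offset both GDH3 probes match. Scaling the centred arrays to equal spread took 6 of the 30 across 2-fold, 5 of them at 0 min and the other GDH3 at 20 min (0.89). At 0 min 3 members were then positive and 2 negative. The scaling set the members' median at 20 min to 1.27 and the GAD1 difference from 0 to 60 min to -0.14. Shifts of members beyond 2-fold were then 4 positive and 1 negative from 0 to 20 min and 3 negative from 20 to 60 min. Under the scaling the related lists held 12 positive and 5 negative genes at 0 min, 2 negative at 20 min and 5 negative at 60 min. No share of all genes is given under it. At 1.5-fold, 3 members were positive and 1 negative at 0 min and 3 negative at 60 min, and the lists held 10 and 1 at 0 min, 12 negative at 20 min and 31 and 21 at 60 min. At 3-fold the lists held 1 positive at 0 min, 2 negative at 20 min and 3 negative at 60 min. The fold thresholds change these counts by construction. No paired analysis was possible because each time has 1 array and no result comes from a test. Signal over background was not analysed, so whether the probes of UGA3, UGA4 and GDH3 that met the low-signal pattern were dim was not tested.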
